A study of Mus musculus with 6 samples.

Results

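The genes described here are 114 solute carrier (Slc) genes, which encode membrane proteins that carry small molecules across membranes. Members were selected on their measured level: the gene symbol had to start with Slc and a digit, and the gene had to reach 10 UMIs per 1000000 UMIs (10 CPM) summed over all cells with at least 500 genes. A UMI (unique molecular identifier) tags 1 captured transcript copy. Of 375 Slc genes in the feature list, 326 had a UMI in those cells, 115 reached the minimum and 114 remained after the rule had excluded Slc16a3, Slc2a1 and Slc7a11. The members stand among 7841 features at the same minimum and 31055 features in all. Levels of the members over all cells ran from 10.2 to 2010 CPM, with a median of 23.5, and 46 members were under 20. The members just above the minimum were Slc25a13 at 10.2, Slc35d1 at 10.3 and Slc30a6 at 10.3 CPM, and the Slc genes just below it were Slc18b1 at 9.97, Slc25a30 at 9.88 and Slc30a1 at 9.82.

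The cells were neoplastic cells sorted from lung tumors of 6 mice and profiled by 10x 3′ single-cell RNA-seq. Among the alleles that all mice carried were Lkb1XTR/XTR (a conditional allele of the tumor suppressor Lkb1 that Cre inactivates and FLPo restores) and Rosa26LSL-tdTomato (a red reporter switched on by Cre). Tumors were started by lentiviral Cre delivered into the trachea and grew for 20 weeks before 2 weeks of tamoxifen or vehicle. The 3 Restored mice also carried FLPo-ERT2, a recombinase that tamoxifen activates, and received tamoxifen. The 3 NonRestored mice were 1 mouse with FLPo-ERT2 given vehicle and 2 mice without it, of which 1 received tamoxifen and 1 vehicle. Each group held 2 male mice and 1 female mouse, and the labels did not state their age. The sort removed dead cells and cells stained for CD45, CD31, F4/80 or Ter119, and kept tdTomato-positive cells, so the reporter marks cells that met Cre and not the state of Lkb1.

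The matrix pooled all mice, and no column or barcode used here gives the mouse of a cell. Restored and NonRestored mice were therefore not compared, the pooled matrix was treated as 1 sample without replicates, and no test was run between cells. How much of each gate came from each mouse is not known here, so a difference between gates cannot be told apart from one between mice, or between restored and non-restored Lkb1. Every 95% interval below covers counting error only and does not include variation between mice. The matrix held 16017 cells and 266713311 UMIs, 13936 cells had at least 500 genes, and 12183 of these had at most 20% mitochondrial UMIs.

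Solute carriers supply a cell with amino acids, sugars, ions, metals and cofactors, or move metabolites between its compartments. Some import their substrate together with sodium, others exchange one substrate for another, and the large Slc25 family sits mostly in the inner mitochondrial membrane. In the alveolus, type II (ATII) cells make surfactant and take up phosphate and peptides from the lining fluid, while the flat type I (ATI) cells form the gas-exchange surface and take part in ion and fluid transport.

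Cells were placed in 3 gates by the UMIs of a gene among 10000 UMIs of that cell. The ATII gate required Sftpc (a surfactant protein) of at least 500, Hopx (an ATI gene) under 2 and the sum of the keratins Krt8 and Krt18 under 50, and it held 6975 cells. The ATI gate required Hopx of at least 15 and the keratin sum under 50, and it held 956 cells. The keratin-high gate required a keratin sum of at least 50 and held 1183 cells, while 3069 cells fell in no gate. Median depth was 21660 UMIs in the ATII gate, 11797 in the ATI gate and 23490 in the keratin-high gate.

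Marker genes followed the names of the gates. The marker lists were chosen with earlier results of these data known, so they are no independent check of the gates. In the ATII gate all 12 ATII markers had their highest level, the ATI gate led for all 12 ATI markers, and 9 of 10 markers of transitional alveolar cells peaked in the keratin-high gate. Summed levels of endothelial markers in the gates lay between 6.91 and 16.9 CPM, of fibroblast markers between 9.82 and 30.9 and of immune markers between 0.587 and 4.11. Ciliated markers summed to 31.1, 151 and 292 CPM in the ATII, ATI and keratin-high gates, of which Tppp3 gave 24.1, 137 and 286, while the ciliated regulator Foxj1 was at 1.18, 1.199 and 0.359. Mesothelial markers summed to 1.55, 39.0 and 125 CPM, of which Msln gave 1.31, 39.0 and 125, while Upk3b, Upk1b, Wt1 and Lrrn4 were at 0 in the ATI and keratin-high gates. The 10 cycling genes summed to 91.5, 6.52 and 97.6 CPM. Without cells that held markers of another cell type, 10 members were called higher and 10 lower in the ATI gate and 14 higher and 10 lower in the keratin-high gate, against the counts of 10, 10, 13 and 10 given next, and leaving out cycling cells gave the same 4 counts. The other cell types left out were endothelial, fibroblast, immune, ciliated, mesothelial and erythroid, each marked by at least 5 UMIs per 10000 over its list. Ciliated-marker cells were 33 (0.473%), 85 (8.89%) and 300 (25.4%) of the ATII, ATI and keratin-high gates, mesothelial-marker cells 2 (0.0287%), 11 (1.15%) and 77 (6.51%), and each of the other 4 lists marked at most 14 cells of a gate. Club markers summed to 121, 44.0 and 16.5 CPM in the ATII, ATI and keratin-high gates, and without the 236, 34 and 8 club-marker cells of the gates, an alternative added after the data were seen, the counts were 10 and 11 and 13 and 10.

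Levels are given as CPM over the summed UMIs of a gate, so deep cells weigh more. The method reads the 3′ end of transcripts and CPM is not scaled by gene length, so a ranking between genes is one of captured transcript ends. A gene is called different between gates at a ratio of at least 2 in either direction, and the share of all 7841 features called in that way is given as the background. Ratios are followed by their exact 95% interval in parentheses. The median log2 ratio of all features was 0.34 for the ATI over the ATII gate and 0.35 for the keratin-high over the ATII gate. Sftpc alone had a median of 1522 of 10000 UMIs in cells of the ATII gate, against 90.8 and 39.6 in the ATI and keratin-high gates. Counts of members are therefore also given relative to the median feature. The ATII gate is the reference of both comparisons, which are thus not independent.

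The phosphate transporter Slc34a2 had the highest level of the members in the ATII gate, while the mitochondrial phosphate carrier Slc25a3 had the highest in the ATI and keratin-high gates. Slc34a2 (NaPi-IIb), the sodium-phosphate cotransporter of the apical membrane of ATII cells, stood at 2742 CPM in the ATII gate, 372 in the ATI gate and 191 in the keratin-high gate. It was 7.38-fold lower (7.18 to 7.59) in the ATI gate than in the ATII gate and 14.3-fold lower (13.98 to 14.7) in the keratin-high gate. All members together summed to 8018, 6692 and 6306 CPM in the ATII, ATI and keratin-high gates, and Slc34a2 made up 34.2%, 5.55% and 3.03% of these sums. Without Slc34a2 the ATII gate had the lowest sum, with 5276 CPM against 6320 in the ATI gate and 6115 in the keratin-high gate. Both differences are smaller than the shift of the median feature, 1.27-fold and 1.28-fold, so relative to the median feature the ATII gate had the highest sum with and without Slc34a2. In the 697 ATI cells with Sftpc under 500, Slc34a2 was at 107 CPM, and in the 1018 such keratin-high cells at 112, so the ratios to the ATII gate were 0.0392 and 0.0407. Both levels lie within the range of cells with endothelial, fibroblast and immune markers, at 57.4, 95.7 and 156 CPM. As a mean over cells and in thinned cells the ATI ratio was 0.0866 and 0.0877, and the keratin-high ratio was 0.0260 at a keratin sum of at least 100 and 0.0289 with Hopx of at least 15, against 0.135 and 0.0697 in the gates as defined. Over 17 alternatives the log2 ratios ran from -4.67 to -2.78 and from -5.26 to -3.55. The other phosphate member, Slc20a1 (PiT-1, a widely used sodium-phosphate importer), was at far lower levels and highest in the keratin-high gate, at 7.32, 6.52 and 17.4 CPM in the ATII, ATI and keratin-high gates.

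**Figure D1:**
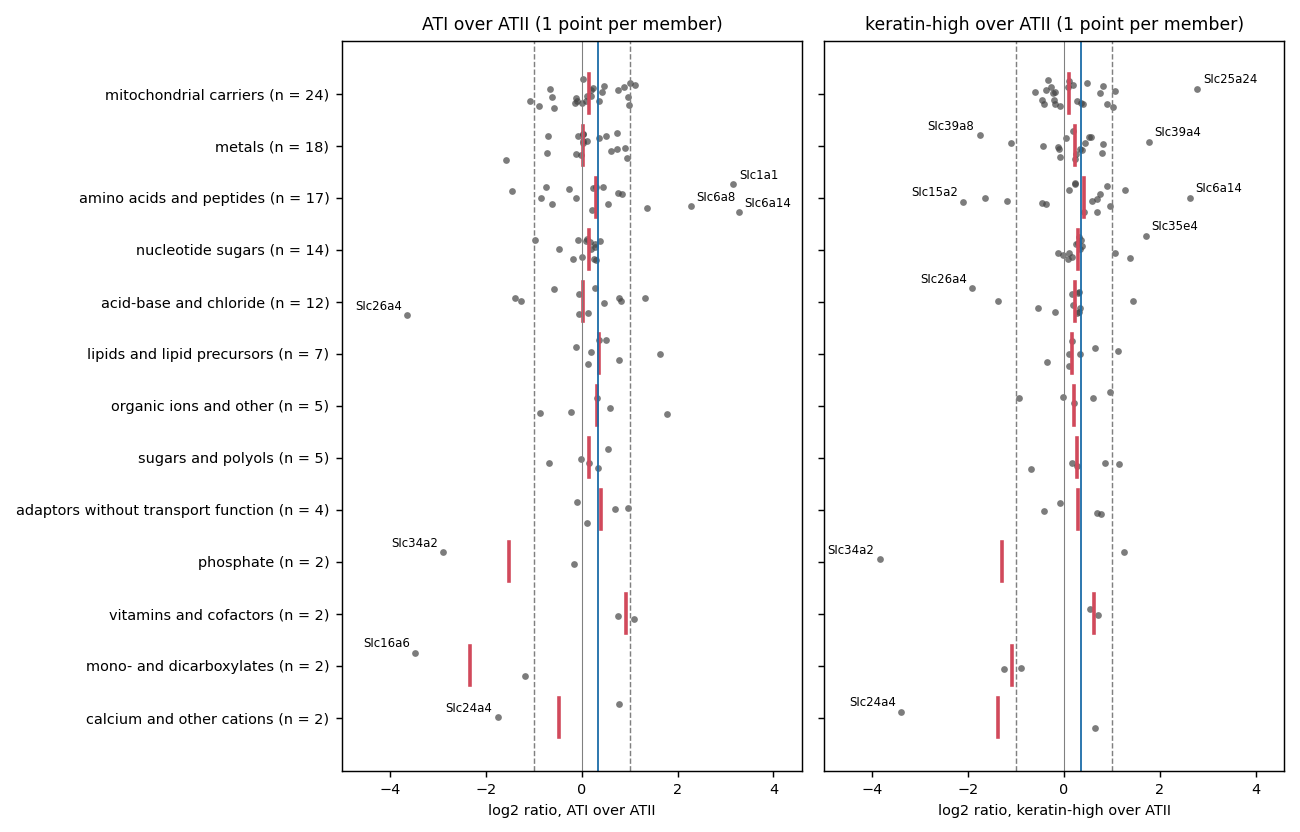
Each point is 1 of the 114 members, placed by its log2 ratio of CPM between gates (left, ATI over ATII; right, keratin-high over ATII) and grouped by substrate. Red bars are group medians, the blue line is the median of all 7841 features (0.34 left, 0.35 right) and dashed lines mark a ratio of 2 in either direction. Most points lie between the dashed lines, and Slc34a2, Slc26a4 and Slc24a4 lie left of them in both panels.

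Between the ATI and ATII gates, 10 of 114 members (8.77%) were at least 2-fold higher and 10 (8.77%) at least 2-fold lower, against 9.76% and 5.94% of all features. Relative to the median feature, 6 members (5.26%) were higher and 19 (16.7%) lower, against 5.42% and 8.71% of all features. The share of higher members was thus near the background on both scales, and the share of lower members was above it, a difference that was not tested. The level minimum is set mostly by ATII cells, for members and all features alike, so it favours genes high in the ATII gate. Slc26a4, Slc16a6 and Slc24a4 were among the lower members under 10 CPM in the ATI gate, at 2.10, 1.65 and 8.02. The median member had a log2 ratio of 0.17, below the 0.34 of all features, and 73 of 114 members lay below that median.

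Slc6a14, which takes up neutral and cationic amino acids with sodium and chloride, was at 11.9 CPM in the ATII gate and 116 in the ATI gate, 9.74-fold higher (9.11 to 10.4). Slc1a1 (EAAC1), a sodium-dependent importer of glutamate and aspartate, was at 6.14 and 55.0, 8.96-fold higher (8.13 to 9.86). These were the largest ratios of any member in this direction. The creatine transporter Slc6a8 was at 13.7 and 66.5 (4.87-fold, 4.50 to 5.27). Slc44a2, a choline transporter-like protein, had the highest level of these members, with 88.7 in the ATII gate and 276 in the ATI gate (3.11-fold, 2.999 to 3.23). Slc38a9, the lysosomal arginine sensor of the mTORC1 pathway, was at 8.74 and 22.4 (2.56-fold, 2.25 to 2.91). These 5 were among the 6 members called higher relative to the median feature. The 4 further calls had ratios from 2.01 to 2.50 and were not called relative to the median feature, among them the ascorbate transporter Slc23a2 at 25.6 and 54.3.

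In the other direction, Slc26a4 (pendrin), which exchanges chloride for bicarbonate and iodide, was at 26.2 CPM in the ATII gate and 2.10 in the ATI gate, 12.5-fold lower (8.61 to 18.8). The monocarboxylate transporter family member Slc16a6 was at 18.3 and 1.65, 11.1-fold lower (7.31 to 17.7). Both ATI values are small and rest on 28 and 22 UMIs. With Hopx of at least 30 as the ATI limit the ratios were 0.0458 for Slc26a4 and 0.0187 for Slc16a6, and over 17 alternatives the log2 ratio ran from -4.45 to -3.54 for Slc26a4 and from -5.74 to -3.32 for Slc16a6. Slc24a4, which exports calcium and potassium in exchange for sodium, was at 27.0 and 8.02 (3.36-fold lower, 2.77 to 4.11), with a ratio of 0.162 in thinned cells. The copper importer Slc31a1 (CTR1) was at 65.9 and 22.2 (2.97-fold lower, 2.65 to 3.35), and the neutral amino acid transporter Slc43a2 (LAT4) at 33.0 and 11.99 (2.75-fold lower, 2.35 to 3.24). The lactate and pyruvate transporter Slc16a1 (MCT1) was at 39.2 and 17.2. The anion transporter Slc26a9 and the sodium-bicarbonate cotransporter Slc4a4, both named after their values were seen, were at 104.9 and 43.4 and at 76.6 and 29.2.

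**Figure D2:**
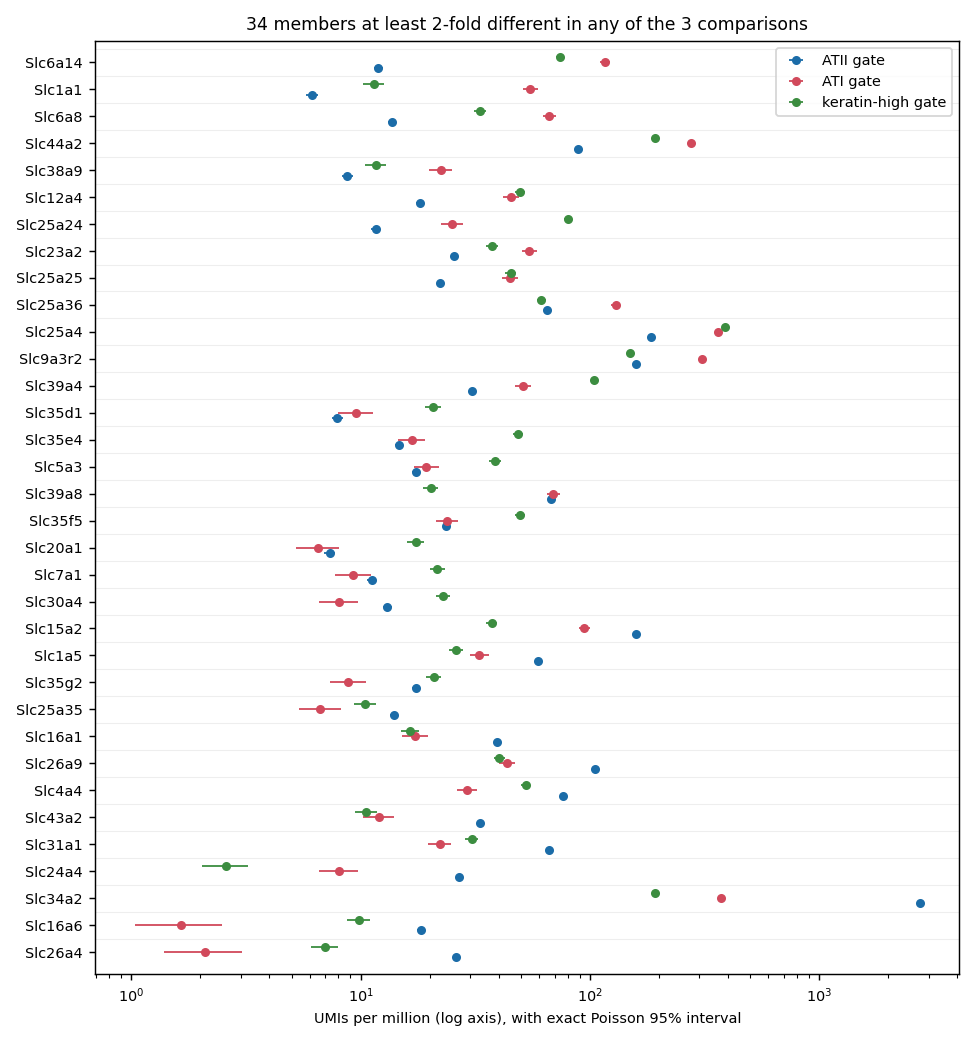
The levels of 34 of the 35 members called in any of the 3 gate comparisons, ordered by their ratio of ATI to ATII, with the level in each gate in CPM on a log axis and exact Poisson 95% intervals (counting error only). Slc6a14 and Slc1a1 are at one end with ATI values of 116 and 55.0, and Slc26a4 is at the other with 2.10.

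Between the keratin-high and ATII gates, 13 members (11.4%) were at least 2-fold higher and 10 (8.77%) at least 2-fold lower, against 12.2% and 5.64% of all features. Relative to the median feature, 6 members (5.26%) were higher and 13 (11.4%) lower, against 6.15% and 8.47%. The share of higher members was again near the background. That of lower members was above it by a few genes, under the same level minimum, and this difference was not tested. The median log2 ratio was 0.24 over the members and 0.35 over all features, and 72 members lay below the latter.

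Slc25a24, a calcium-regulated mitochondrial carrier that exchanges ATP-Mg for phosphate, was at 11.7 CPM in the ATII gate and 80.4 in the keratin-high gate, 6.90-fold higher (6.49 to 7.33). Slc6a14 was at 11.9 and 74.2, 6.22-fold higher (5.85 to 6.61), and so was called in the ATI and the keratin-high gates. Its ratio to the ATII gate was 3.47 in keratin-high cells with Hopx under 2 and 14.7 in those with Hopx of at least 15. The zinc importer Slc39a4 (ZIP4) was at 30.5 and 104 (3.42-fold, 3.27 to 3.58). Slc35e4, an orphan member of the nucleotide sugar transporter family, was at 14.7 and 48.4 (3.29-fold, 3.08 to 3.51), with a ratio of 2.07 in keratin-high cells with Hopx of at least 15. The potassium-chloride cotransporter Slc12a4 (KCC1) was at 18.1 and 49.4 (2.73-fold, 2.57 to 2.91), and was also called in the ATI gate at 45.2. Slc35d1, which brings UDP-sugars into the endoplasmic reticulum, was at 7.92 and 20.7 (2.62-fold, 2.38 to 2.88), but its ratio in keratin-high cells with Hopx of at least 15 was 1.301 and not called. Slc20a1 and the myo-inositol transporter Slc5a3 were among the other 7 calls, with 17.4 and 38.6 CPM in the keratin-high gate. Slc5a3 overlaps Mrps6 on the same strand in the annotation, so its counts are uncertain.

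Among the lower members, Slc34a2 was followed by Slc24a4, at 27.0 CPM in the ATII gate and 2.58 in the keratin-high gate, 10.5-fold lower (8.38 to 13.2). This keratin-high value rests on 79 UMIs, and in place of 0.0956 the ratio was 0.0473 with a keratin sum of at least 100, 0.0481 with Sftpc under 500, 0.0521 with Hopx of at least 15 and 0.0537 in thinned cells. In cells with endothelial, fibroblast and immune markers Slc24a4 was at 1.89, 1.28 and 2.12 CPM, near its keratin-high level. The peptide transporter Slc15a2 (PEPT2), which takes up di- and tripeptides with protons, was at 159 and 37.2 (4.28-fold lower, 4.03 to 4.54). Its ATI level of 94.4 lay between them, 1.69-fold lower (1.59 to 1.79) than the ATII level. Slc26a4 was at 26.2 and 6.98 (3.75-fold lower, 3.27 to 4.32), and in place of 0.267 its ratio was 0.138 at a keratin sum of at least 100 and 0.0716 with Hopx of at least 15. Slc39a8 (ZIP8), an importer of zinc and manganese, was at 67.9, 69.0 and 20.2 in the ATII, ATI and keratin-high gates, 3.36-fold lower (3.10 to 3.65) in the keratin-high than in the ATII gate. With Hopx of at least 15 that ratio was 0.524 and not called. Slc43a2 was at 33.0 and 10.5 (3.13-fold lower, 2.80 to 3.52).

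Set side by side against the ATII gate, 7 members were called lower in both gates, namely Slc34a2, Slc26a4, Slc24a4, Slc26a9, Slc43a2, Slc31a1 and Slc16a1, which is 6.14% of the members against 3.76% of all features. Another 6 were called higher in both, 5.26% against 5.62% of all features, namely Slc6a14, Slc6a8, Slc44a2, Slc12a4 and the calcium-regulated carriers Slc25a24 and Slc25a25. Slc25a25, like Slc26a9, was named after its values were seen. Relative to the median feature, 12 members (10.5%) were lower in both and 1 (0.877%) was higher in both, against 5.57% and 2.93% of all features. In these comparisons 84 members (73.7%) were called in neither gate, against 76.1% of all features. No member was called higher in one gate and lower in the other, which held for 0.217% of all features. The highest of the 3 levels was in the ATI gate for 43 members (37.7%), in the keratin-high gate for 43 (37.7%) and in the ATII gate for 28 (24.6%), against 39.6%, 43.5% and 16.9% of all features. Relative to the median feature it was in the ATII gate for 59 members (51.8%), against 37.6% of all features.

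Between the keratin-high and ATI gates, 11 members (9.65%) were at least 2-fold higher and 7 (6.14%) at least 2-fold lower in the keratin-high gate, against 5.25% and 3.79% of all features. The median log2 ratio was -0.00 over the members and 0.01 over all features. Slc16a6 was at 1.65 CPM in the ATI gate and 9.78 in the keratin-high gate (5.93-fold, 3.85 to 9.61), with log2 ratios from 0.99 to 4.84 over 17 alternatives, the highest with ATI cells of Hopx at least 30 and the lowest, not called, with keratin-high cells of Hopx at least 15. Slc26a4 was at 2.10 and 6.98 (3.33-fold, 2.24 to 5.12), with log2 ratios from -0.16 to 2.91 over 17 alternatives. Its ratio was 1.72 and not called at a keratin sum of at least 100, 5.14 in thinned cells and 5.82 with ATI cells of Hopx at least 30, and the highest log2 ratio was that of the mean over cells. Slc25a24 was at 25.03 and 80.4 (3.21-fold, 2.86 to 3.61), and Slc35e4 at 16.7 and 48.4 (2.90-fold, 2.51 to 3.35). The zinc exporter Slc30a4 (ZnT4) was at 8.02 and 22.9 (2.85-fold, 2.32 to 3.53), and Slc20a1 at 6.52 and 17.4 (2.67-fold, 2.12 to 3.38). In the 127 keratin-high cells with Hopx of at least 15, Slc25a24 alone of these 6 stayed called. There the ratio to the ATI gate was 1.99 for Slc16a6, 0.893 for Slc26a4, 1.82 for Slc35e4, 1.28 for Slc30a4 and 1.72 for Slc20a1. Slc20a1 was also not called in thinned cells, with a log2 ratio of 0.90.

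In the other direction, Slc1a1 was at 55.0 CPM in the ATI gate and 11.4 in the keratin-high gate, 4.83-fold lower (4.25 to 5.51), whereas Slc6a14 was at 116 and 74.2. The ratio of Slc1a1 was 0.0947 in keratin-high cells with Hopx under 2, and 0.655 and not called in those with Hopx of at least 15. Slc39a8 was at 69.0 and 20.2 (3.42-fold lower, 3.08 to 3.79), Slc24a4 at 8.02 and 2.58 (3.11-fold lower, 2.31 to 4.22), and Slc15a2 at 94.4 and 37.2 (2.54-fold lower, 2.34 to 2.75). The ratio of Slc24a4 was 0.159 at a keratin sum of at least 100 and 0.175 with Hopx of at least 15, in place of 0.321. Slc25a36, a mitochondrial carrier of pyrimidine nucleotides, was at 129 and 61.2 (2.11-fold lower, 1.98 to 2.25). Slc9a3r2 (NHERF2), a scaffold protein that binds transporters and carries no substrate itself, was at 309 and 149.7 (2.07-fold lower, 1.98 to 2.15). In both, the ATI gate stood apart, since the ATII levels were 64.9 and 159. With Hopx of at least 15 the ratio of Slc39a8 was 0.516, that of Slc25a36 0.718 and that of Slc9a3r2 0.762, and none of the 3 was called. Slc15a2 also lost its call there, with a log2 ratio of -0.80, and Slc9a3r2 was not called as a mean over cells, with a log2 ratio of -0.92.

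Promoter sequences follow for 6 members with large ratios that were highest in different gates: Slc34a2, Slc26a4 and Slc24a4 in the ATII gate, Slc6a14 and Slc1a1 in the ATI gate, and Slc25a24 in the keratin-high gate. They are RefSeq promoters on GRCm38.p6, 5′ to 3′ along the gene, from the 250 bases before the RefSeq start, and leave out bases inside an exon of the gene in GENCODE M21. Capitals mark matches, on either strand, to 5 short motifs: TTGCNNAA (C/EBP), CAAGNG (NKX2-1), TGTTTNC (FOXA), TGANTCA (AP-1) and GGAATG (TEAD).
Slc34a2 (chr5:53049103-53049351, strand +): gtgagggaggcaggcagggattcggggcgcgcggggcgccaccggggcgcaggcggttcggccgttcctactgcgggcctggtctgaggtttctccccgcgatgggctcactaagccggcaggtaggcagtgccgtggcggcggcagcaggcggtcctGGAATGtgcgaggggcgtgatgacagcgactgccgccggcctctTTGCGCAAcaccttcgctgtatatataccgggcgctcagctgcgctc
Slc26a4 (chr12:31559985-31560234, strand -): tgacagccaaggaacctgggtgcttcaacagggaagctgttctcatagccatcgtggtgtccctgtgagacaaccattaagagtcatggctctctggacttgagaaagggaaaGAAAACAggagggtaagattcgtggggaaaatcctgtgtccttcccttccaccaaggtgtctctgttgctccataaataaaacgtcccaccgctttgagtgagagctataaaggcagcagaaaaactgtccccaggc
Slc24a4 (chr12:102128477-102128726, strand +): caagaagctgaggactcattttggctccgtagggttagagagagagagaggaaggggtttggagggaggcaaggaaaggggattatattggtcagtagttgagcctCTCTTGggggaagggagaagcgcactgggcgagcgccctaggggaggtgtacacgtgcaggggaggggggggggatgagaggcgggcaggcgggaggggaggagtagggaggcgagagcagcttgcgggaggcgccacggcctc
Slc6a14 (chrX:21714650-21714895, strand +): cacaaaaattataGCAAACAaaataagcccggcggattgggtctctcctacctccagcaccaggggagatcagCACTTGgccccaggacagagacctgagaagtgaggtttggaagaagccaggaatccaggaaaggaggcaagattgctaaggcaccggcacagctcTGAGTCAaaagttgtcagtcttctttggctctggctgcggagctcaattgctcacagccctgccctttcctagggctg
Slc1a1 (chr19:28834885-28835048, strand +): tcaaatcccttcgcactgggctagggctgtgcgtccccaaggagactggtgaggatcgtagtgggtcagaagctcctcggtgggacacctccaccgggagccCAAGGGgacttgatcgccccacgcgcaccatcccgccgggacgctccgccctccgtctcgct
Slc25a24 (chr3:109122899-109123148, strand +): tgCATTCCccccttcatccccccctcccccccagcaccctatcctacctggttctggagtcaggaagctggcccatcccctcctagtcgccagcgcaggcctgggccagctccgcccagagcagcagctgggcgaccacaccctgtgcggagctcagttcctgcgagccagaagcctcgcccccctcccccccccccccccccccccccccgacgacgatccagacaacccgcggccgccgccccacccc
The Slc34a2 stretch lies inside the GENCODE gene (chr5:53038081-53071664), in an intron of a longer transcript. It holds a C/EBP match that begins at base -48 and a TEAD match that begins at base -92 from the RefSeq start. The stretch of Slc26a4 holds a FOXA match, and those of Slc24a4 and Slc1a1 hold an NKX2-1 match each. Slc6a14 had the only AP-1 match of the 6, at base -82, beside an NKX2-1 and a FOXA match. The single match of Slc25a24 was to the TEAD motif.

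How common such matches were in general differed between the motifs. In the 250 bases before the start, 9.56% of all 32851 promoters of the table held the C/EBP motif, 40.6% the NKX2-1 motif, 17.8% the FOXA motif, 6.75% the AP-1 motif and 12.6% the TEAD motif. The table had 117 promoters of 92 members, of which 6.84%, 41.9%, 11.97%, 5.98% and 15.4% held them in the same order. The 8 promoters of the 7 members lower in both gates held them in 1, 2, 2, 0 and 2 cases, and the 20 promoters of 14 members higher in either gate in 3, 7, 2, 1 and 4 cases. A match describes the letters only.

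Along the gate genes the members differed in steps. In cells with a keratin sum under 50, binned by Hopx, Slc34a2 was at 2742 CPM with Hopx under 2, and at 1813, 957, 463 and 254 in the bins from 2 to 5, 5 to 15, 15 to 30 and at least 30. Slc1a1 went the other way, with 6.14, 17.3, 29.1, 47.8 and 64.2 over the 5 bins, as did Slc6a14, with 11.9, 33.2, 65.0, 107 and 128. Slc26a4 was at 26.2, 22.5, 8.99, 2.80 and 1.199, so it differed little between the first 2 bins and more between the later ones. Slc25a24 was at 11.7 with Hopx under 2 and between 22.8 and 26.8 in the 4 bins above. The lowest Hopx bin is the ATII gate and required Sftpc of at least 500, which the other 4 bins did not.

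In cells with Hopx under 2, binned by the keratin sum, other members differed. Slc25a24 was at 7.81 CPM with keratins under 10, and at 14.9, 32.0, 78.7 and 112 in the bins from 10 to 25, 25 to 50, 50 to 100 and at least 100, so its level already differed between bins inside the ATII gate. Slc39a4 was at 24.6, 36.6, 55.4, 107 and 118. Slc26a4 was highest in the bin from 25 to 50, with 20.0, 34.2, 43.1, 10.9 and 4.58 over the 5 bins. Slc1a1 stayed between 4.41 and 8.53. Slc34a2 was at 2968, 2526, 1705, 319.7 and 72.4, with the largest step between the bins on either side of 50. Cells under 50 had to have Sftpc of at least 500, as in the ATII gate, and cells above 50 did not, so this step and the change in the Sftpc limit cannot be told apart.

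**Figure D3:**
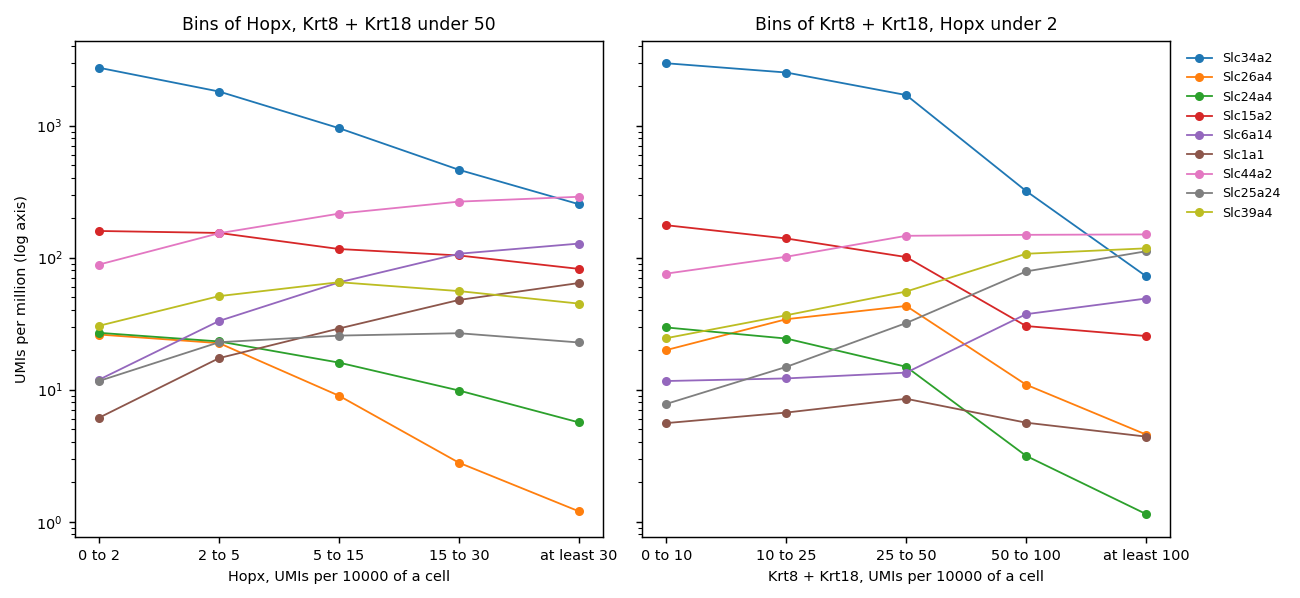
Level of 9 members in CPM (log axis) over bins of Hopx in cells with Krt8 + Krt18 under 50 (left) and over bins of Krt8 + Krt18 in cells with Hopx under 2 (right), both as UMIs among 10000 UMIs of a cell. Cells of the lowest Hopx bin and of keratin bins under 50 had Sftpc of at least 500. Slc1a1 goes from 6.14 to 64.2 on the left and stays between 4.41 and 8.53 on the right, where Slc25a24 goes from 7.81 to 112.

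The share of cells with a UMI was taken after each cell was thinned to 5000 UMIs, which kept 6772 ATII, 841 ATI and 1090 keratin-high cells and left out 203, 115 and 93 shallower cells. Cells with endothelial markers served as cells of another type, with 78 kept of 127 and a median of 9488 UMIs before thinning. Slc34a2 had a UMI in 99.4% of ATII cells (exact binomial interval 99.2 to 99.6), 36.1% of ATI cells (32.9 to 39.5) and 28.2% of keratin-high cells (25.5 to 30.9), against 7.69% of endothelial-marker cells (2.88 to 15.99). In the 183 fibroblast-marker and 72 immune-marker cells kept, it was 11.5% (7.25 to 17.0) and 16.7% (8.92 to 27.3), and unthinned 23.1% and 28.4%, with median depths of 15286 and 23752 UMIs. Unthinned, the shares of the 3 gates and the endothelial-marker cells were 99.7%, 48.0%, 52.3% and 20.5%. Free RNA of so abundant a gene can give UMIs in cells that do not express it, and its part in the ATI and keratin-high shares was not tested.

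Slc6a14 had a UMI in 6.38%, 42.8% and 29.0% of the thinned cells of the ATII, ATI and keratin-high gates and in 0 of 78 endothelial-marker cells (upper limit 4.62%), and unthinned in 20.8%, 67.2%, 57.4% and 0.787%. Slc1a1 had one in 3.31%, 25.6% and 6.24% and in 0 of 78, and unthinned in 11.9%, 45.3%, 20.9% and 2.36%. In fibroblast-marker cells the shares of Slc6a14 and Slc1a1 were 0% (upper limit 1.9956%) and 0.546%, and in immune-marker cells 0 of 72 had a UMI of each (upper limit 4.99%). For both, the order of the 3 gates was that of the CPM. Slc26a4 had one in 8.31%, 0.713% and 3.12% and in 0 of 78, and unthinned in 24.2%, 1.78%, 9.64% and 0.787%. In the thinned fibroblast-marker and immune-marker cells it had 0 UMIs, with the same upper limits as Slc6a14. Its ATI share and the keratin-high share of Slc24a4 (0.734%) rest on 6 and 8 cells. Slc25a24 had one in 4.83%, 12.6% and 30.0%, and in 15.4% of endothelial-marker cells (8.21 to 25.3), 13.1% of fibroblast-marker and 16.7% of immune-marker cells, so its ATII share was below those of the other cell types and its ATI share was not above them (unthinned 20.3%, 27.3%, 69.6% and 27.6%).

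**Figure D4:**
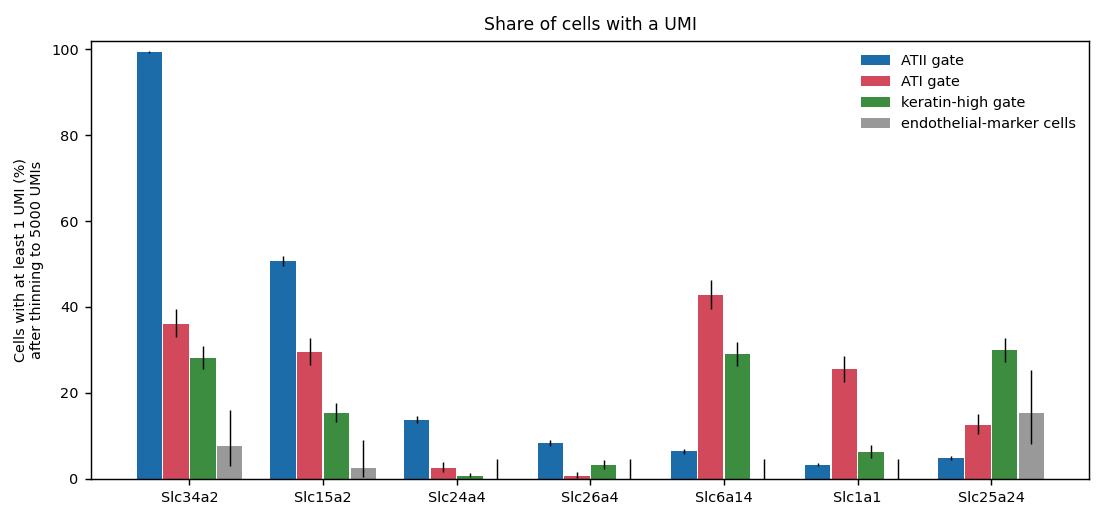
Share of cells (%) with at least 1 UMI of 7 members after thinning every cell to 5000 UMIs, in the 3 gates and in 78 endothelial-marker cells, with exact binomial 95% intervals (counting error only). Slc34a2 is found in 99.4% of ATII cells, Slc6a14 in 42.8% of ATI cells and Slc25a24 in 30.0% of keratin-high cells.

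Among the 17 members that carry amino acids, peptides and related compounds, 4 were higher and 1 lower in the ATI gate, and 2 higher and 3 lower in the keratin-high gate, both against ATII. With the median feature as the base, 4 were higher and 3 lower in the ATI gate, and 1 was higher and 3 lower in the keratin-high gate. In the whole set of features 9.76% were higher and 5.94% lower in the ATI gate and 12.2% and 5.64% in the keratin-high gate, or 5.42%, 8.71%, 6.15% and 8.47% relative to the median feature. Their median log2 ratios were 0.29 and 0.41. The most abundant member, Slc38a2 (SNAT2), a sodium-coupled importer of neutral amino acids, was nearly level at 349, 407 and 409 CPM in the ATII, ATI and keratin-high gates. Slc3a2, the heavy chain of amino acid exchangers (CD98), was at 159, 216 and 171. Its partner Slc7a5 (LAT1), which at 9.29 CPM over all cells fell below the minimum, was at 11.4, 1.80 and 6.36, so the heavy chain was highest and this light chain lowest in the ATI gate. The glutamine transporter Slc1a5 (ASCT2), named after its values were seen, was at 59.4, 32.9 and 26.1 and thus highest where its family member Slc1a1 was lowest. As a share of the UMIs of both, Slc1a5 made up 90.6% in the ATII gate (90.1 to 91.2), 37.4% in the ATI gate (34.6 to 40.3) and 69.6% in the keratin-high gate (66.8 to 72.3).

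The 24 mitochondrial carriers had 2 members higher and 1 lower in the ATI gate and 3 higher and 0 lower in the keratin-high gate, with median log2 ratios of 0.15 and 0.10. Against the median feature, 0 were higher and 3 lower in the ATI gate, and 1 was higher and 0 lower in the keratin-high gate. The shares of all features in CPM, 9.76% higher and 5.94% lower in the ATI gate and 12.2% and 5.64% in the keratin-high gate, and relative to the median feature, 5.42% and 8.71% and 6.15% and 8.47%, are the background of these counts. The phosphate carrier Slc25a3 was the most abundant, at 466, 548 and 648 CPM in the ATII, ATI and keratin-high gates. The carriers Slc25a4 (ANT1) and Slc25a5 (ANT2), which exchange ADP and ATP across the inner membrane and are named after their values were seen, had different patterns. Slc25a4 was at 185, 362 and 389 and Slc25a5 at 402, 365 and 428. Slc25a4 thus made up 31.6% in the ATII gate (31.3 to 31.9), 49.8% in the ATI gate (48.8 to 50.8) and 47.7% in the keratin-high gate (47.0 to 48.3) of the UMIs of both. Slc25a25, which belongs to the same calcium-regulated branch as Slc25a24, was at 22.3, 44.7 and 45.1, with nearly equal levels in the ATI and keratin-high gates, unlike Slc25a24 at 11.7, 25.03 and 80.4.

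Of the 18 metal transporters, 0 were higher and 1 lower in the ATI gate, and 1 was higher and 2 lower in the keratin-high gate. In the ATI gate 0 were higher and 3 lower relative to the median feature, and the keratin-high counts were as in CPM. Over all features the shares were 9.76% and 5.94% in the ATI gate (5.42% and 8.71% relative to the median feature) and 12.2% and 5.64% in the keratin-high gate (6.15% and 8.47%). The zinc transporter of the endoplasmic reticulum, Slc39a7 (ZIP7), had the highest level over all cells and was at 72.6, 73.5 and 83.4 CPM in the ATII, ATI and keratin-high gates. Family members differed in their order: Slc39a8 made up 69.0% in the ATII gate (68.3 to 69.7), 57.5% in the ATI gate (55.0 to 59.9) and 16.2% in the keratin-high gate (15.04 to 17.4) of the UMIs of Slc39a8 and Slc39a4. Slc31a1 and its neighbour Slc31a2, which lie 62316 bases apart on chromosome 4, also differed. Against the ATII gate their log2 ratios were -1.57 and 0.35 in the ATI gate and -1.11 and 0.34 in the keratin-high gate.

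Among the 12 members for chloride, bicarbonate and protons, 1 was higher and 3 lower in the ATI gate, and 1 higher and 2 lower in the keratin-high gate. The higher call in the ATI gate, Slc12a4, was lost relative to the median feature, and the other counts were as in CPM. Against the ATII gate, 9.76% of all features were higher and 5.94% lower in the ATI gate (5.42% and 8.71% relative to the median feature), and 12.2% and 5.64% in the keratin-high gate (6.15% and 8.47%). Slc12a2 (NKCC1), a sodium-potassium-chloride cotransporter, was the most abundant at 337, 406 and 295 CPM in the ATII, ATI and keratin-high gates and was not called. The anion transporters Slc26a9 and Slc26a4 were lower in both gates, with Slc26a9 at 104.9, 43.4 and 40.2, while Slc12a4 was higher in both in CPM. The 14 members of the nucleotide sugar group had 0 calls in the ATI gate, where log2 ratios ran from -0.98 to 0.38. Of these, 13 lay below the median feature and 1 was called lower relative to it. In the keratin-high gate 3 of them were higher and 0 lower than in the ATII gate, and 4 were higher than in the ATI gate, where the share of all features was 5.25%. Of the 3, 2 were also called relative to the median feature. Slc35b1, the ATP importer of the endoplasmic reticulum and the most abundant of them, was at 58.7, 63.2 and 72.0. The 7 members for lipids and their precursors had 1 call in each gate, Slc44a2, which was at 193 in the keratin-high gate and was not called there relative to the median feature.

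The groups with at most 5 members are given by gene and set beside the same shares of all features, 9.76% higher and 5.94% lower in the ATI gate and 12.2% and 5.64% in the keratin-high gate (5.42%, 8.71%, 6.15% and 8.47% relative to the median feature). Of 2 phosphate transporters, Slc34a2 was lower in both gates and Slc20a1 higher in the keratin-high gate in CPM only. Both carboxylate transporters, Slc16a6 and Slc16a1, were lower in the ATI gate, and in the keratin-high gate Slc16a1 was lower in CPM and both were lower relative to the median feature. Of 2 vitamin transporters, Slc23a2 was higher in the ATI gate in CPM only. With the median feature as the base, 0 of 5 sugar and polyol transporters were higher and 1 lower in each gate against ATII, and of 5 for organic ions 1 was higher and 1 lower in the ATI gate and 0 higher and 1 lower in the keratin-high gate. Among 5 sugar and polyol transporters only Slc5a3 in the keratin-high gate was called, and the sugar transporter Slc50a1 (SWEET1) was at 74.9, 46.5 and 46.5 CPM in the ATII, ATI and keratin-high gates. The sugar-phosphate transporter family members Slc37a1 and Slc37a3 were at 27.7, 40.3 and 33.3 and at 13.97, 17.7 and 25.5, and Slc45a4 at 17.5, 17.4 and 19.6. Of 5 members for organic ions, 1 was called, in the ATI gate, and the organic ion transporter family member Slc22a23 was the most abundant at 35.6, 53.7 and 41.0. Slc22a15 was at 22.3, 12.1 and 11.7, the lysosomal sialic acid exporter Slc17a5 at 14.01, 17.4 and 13.9, and Slc22a18 at 9.76, 8.39 and 14.9. Of the potassium-dependent sodium-calcium exchangers, Slc24a4 was lower in both gates while the intracellular Slc24a5 was at 16.03, 27.6 and 25.2. Slc24a4 was 62.7% in the ATII gate (61.6 to 63.8), 22.5% in the ATI gate (18.8 to 26.6) and 9.26% in the keratin-high gate (7.40 to 11.4) of the UMIs of both. The riboflavin transporter Slc52a2 was at 9.36, 15.8 and 15.4. Among 4 proteins that share the Slc symbol but carry no substrate, 0 were called against the ATII gate. The scaffold NHERF1 (Slc9a3r1) was at 48.8, 52.9 and 84.0, Slc4a1ap at 11.9, 19.2 and 19.04 and Slc7a6os at 20.3, 19.03 and 15.3.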

How the data were processed

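Single-cell RNA-seq libraries (10x Chromium 3′) came from tumor cells of 6 mice sorted as described above. The authors deposited 1 matrix for all mice with raw counts of UMIs per gene and cell barcode, made with Cell Ranger 3.0.2 on the mm10 build per the submitters' processing notes. Nothing in the matrix used here assigns a cell to a mouse, so the edgeR comparison planned between Restored and NonRestored mice was not run, and no paired, batch or replicate check was made. Cells with at least 500 genes and at most 20% mitochondrial UMIs were gated, and doublets were kept. Levels had exact Poisson intervals, ratios exact conditional binomial intervals and shares Clopper-Pearson intervals at 95%. PCR duplicates are removed by UMIs, but intervals cover counting error only. Members were grouped by substrate from known function, and the 4 proteins without transport function were set apart when the members were known. Members, gates and gene lists were chosen with earlier results of these data known.

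Named genes were, in each of the 3 gate comparisons, the 6 members with the largest ratio in each direction among those at least 2-fold different, the most abundant member of each substrate group, Slc34a2, Slc3a2 and Slc7a5, the 3 genes on each side of the level minimum and members of groups with fewer than 6, with exceptions stated where they occur. The minimum over all cells is set mostly by ATII cells, so a gene high in a small gate alone can miss it. Gene positions and overlaps came from GENCODE M21 on GRCm38 (114 of 114 members matched by gene ID), and promoters from RefSeq on GRCm38.p6 (92 members matched by symbol). The scripts were tested on simulated data. Results for 1 member, and 1 allele that all mice carried, are not reported here. Analyses ran in Python 3.11.15 with scipy 1.17.1 for intervals, pandas 2.3.3 and numpy 2.4.6 for tables, and matplotlib 3.10.9 for plots. Alternatives changed the level minimum, gate limits, cells left out, scaling and the ratio called.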

Additional observations from a re-analysis of the deposited data

How the results depend on the processing

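No paired analysis was run because no column or barcode used here gives the mouse of a cell, and for the same reason no mouse was left out. Against main counts of 10 higher and 10 lower members (20 in all) for ATI over ATII, 13 and 10 (23) for keratin-high over ATII, and 11 and 7 (18) for keratin-high over ATI, 20, 20 and 17 of 22 alternatives, 1 of them (without club-marker cells) added after the data were seen, left the total within 1.5 times. Relative to the median feature, 6 were higher and 19 lower in the ATI gate and 6 were higher in the keratin-high gate, both against ATII. With surfactant, lysozyme, mitochondrial and gate genes left out of the total, 16 were lower in the ATI gate and 6 higher in the keratin-high gate. With Sftpc under 500 required in the ATI gate, 17 were higher there. Without a level minimum the counts were 31 higher and 33 lower (64), 42 and 36 (78), and 31 and 25 (56) in the 3 comparisons, and at a ratio of 1.5 they were 29 and 21 (50), 31 higher of 45, and 19 and 13 (32). For keratin-high over ATI, keratin-high cells with Hopx of at least 15 gave 2 higher and 4 lower (6), a minimum of 5 gave 11 lower, a minimum of 20 gave 10 calls with 4 higher, and requiring the nearest bound of the 95% interval to pass 2 gave 6 higher and 4 lower (10). The set without a minimum took Slc genes with at least 20 UMIs over the compared gates. Apart from the scale relative to the median feature, the share of all features called was not computed under the alternatives. Their counts therefore show only how the member calls moved. Of 36 named gene and comparison pairs under 17 alternatives each, 597 of 612 values stayed past 2-fold, and 24 pairs did so under every alternative. The only reversed value was Slc26a4 for keratin-high over ATI, with a log2 ratio of -0.16 in keratin-high cells with Hopx of at least 15. The cause of these differences was not tested. The ATI values of Slc26a4 and Slc16a6 rest on 28 and 22 UMIs.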

Other observations

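Solute carriers below the level minimum also differed between gates. Without the genes that the rule excludes there were 258 such Slc genes, of which 129 had at least 20 UMIs over the gates. The following were chosen after their values were seen. Slc7a7, a light chain that exports cationic amino acids together with Slc3a2, was at 2.25, 27.2 and 9.68 CPM in the ATII, ATI and keratin-high gates (ATI over ATII 12.1, 10.4 to 13.999). Slc4a11, a transporter of the bicarbonate transporter family, was at 0.458, 0.974 and 15.9 (keratin-high over ATII 34.8, 27.2 to 45.1). The sodium-proton exchanger Slc9a4 was at 4.30 in the keratin-high gate and had 10 UMIs in the ATII gate. The zinc transporter family member Slc39a2 was at 1.35, 6.52 and 12.98. Slc13a2, a sodium-dicarboxylate cotransporter, and the neutral amino acid exchanger Slc7a8 were highest in the ATII gate, at 5.46, 0.150 and 1.08 and at 3.26, 0.300 and 0.0652.

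Of 29 transporter genes with other names, 19 reached the minimum, of which 1 was higher and 2 lower in the ATI gate and 1 higher and 3 lower in the keratin-high gate, both against ATII, and 0 higher and 2 lower in the keratin-high than in the ATI gate. Of all features 9.76% were higher and 5.94% lower, 12.2% and 5.64%, and 5.25% and 3.79% in these 3 comparisons. The organic anion transporter Slco3a1, like Mfsd2a named after its values were seen, was at 24.0, 199.6 and 88.8 CPM in the ATII, ATI and keratin-high gates, and Mfsd2a, which takes up lysophosphatidylcholine, at 95.1, 8.47 and 15.5. Among the cells with markers of other types, 5 members were at least 2-fold above the highest gate and 50 at least 2-fold below it in the 127 endothelial-marker cells, 3 and 41 in the 238 fibroblast-marker cells and 5 and 53 in the 81 immune-marker cells. Of all features 8.10% and 23.1%, 5.33% and 23.1% and 5.34% and 34.4% were above and below in these cells. Of genes chosen after their values were seen, the taurine transporter Slc6a6 was at 381 CPM in fibroblast-marker and 473 in immune-marker cells, against 43.2, 52.8 and 72.8 in the ATII, ATI and keratin-high gates, and NHERF2 (Slc9a3r2) was at 648 in endothelial-marker cells. Slc34a2 was at 57.4, 95.7 and 156 CPM in the endothelial-, fibroblast- and immune-marker cells.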
